A study of Mus musculus with 6 samples.

Results

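This account covers the genes of the CDK4 and CDK6 switch in cells of the mouse aorta labelled as endothelial. These are the inhibitors Cdkn1a, Cdkn1b, Cdkn2a, Cdkn2b and Cdkn2c, the D-type cyclins Ccnd1, Ccnd2 and Ccnd3, and the kinases Cdk4 and Cdk6. The 10 genes were taken by symbol from the 54532 genes of the count table. All 10 passed the low-count filter that left 14814 genes to test, each symbol had 1 row, and they were listed by name and not by a threshold on these values, though with earlier results of these data known. Bulk RNA-seq had been done on 6 libraries of cultured cells labelled as mouse aortic endothelial cells (MAEC). Their genotype was Oct4 KO in all, and the mice were female for 3 and male for the other 3. All were untreated and grown in F-12 medium with 20% fetal bovine serum, heparin and endothelial growth factors. In both groups Oct4, the pluripotency factor gene Pou5f1, had been deleted in endothelial cells only. The sources used here do not give the driver of that deletion or the age of the mice. Nor do they say if same-sex libraries stem from separate mice or cultures, and p-values therefore reflect the spread among these 6 libraries alone, which may be technical. Wild-type cells were not analysed here, so every comparison is female against male within the knockout genotype.

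A cell in G1 phase commits to DNA synthesis when the retinoblastoma protein RB is phosphorylated and releases E2F transcription factors. D-type cyclins, made in response to growth factors, bind CDK4 or CDK6 and start that phosphorylation. INK4 inhibitors bind the 2 kinases themselves, while CIP/KIP inhibitors bind cyclin-CDK complexes, block CDK2 and can help assemble the cyclin D kinases. In endothelium and other vascular cells these genes are known from growth arrest at confluence, from regrowth after injury and from replicative senescence in culture.

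Total counts were 19299742 to 23064738 per library. Pou5f1 had 0 counts in all 6, which allows at most 0.154 CPM (counts per 1000000 of the TMM-scaled library total; 3 counts) in any of them and does not check the genotype without wild-type cells. The sex labels matched the sex-linked genes: Xist had 21282 to 31900 counts in female and 0 to 8 in male libraries, and 4 Y-linked genes (Ddx3y, Eif2s3y, Kdm5d, Uty) had 190 to 1318 counts in each male library and 0 in each female one. The label endothelial cell was checked too. Of 15 pan-endothelial markers 11 were under 1 CPM in every library, among them Cdh5, Kdr and Tek, and Emcn, Cldn5, Robo4 and Sox17 had 0 counts in all. Of 10 fibroblast markers 8 reached 10 CPM in every library. The cells are therefore called by their label only. Summed levels also differed between the groups: 14419 to 16076 CPM in female and 6625 to 7199 in male libraries for the fibroblast markers, 147 to 174 and 258 to 325 for the endothelial ones, and 191 to 206 and 432 to 441 for 11 smooth muscle and pericyte markers. The members of each list differed in direction. Of the fibroblast genes Dcn was at 6375 ± 449 CPM in females against 442 ± 58.7 in males, while Fbln1 (log2 -3.07), Mfap5 (-2.27) and Col1a2 (-0.45) were lower in females. Of the endothelial genes Eng was lower (92.2 ± 8.93 against 253 ± 31.9 CPM) and Flt1 higher (57.7 ± 8.13 against 27.6 ± 3.56). Of the smooth muscle and pericyte genes Rgs5 was at 0.76 ± 0.46 against 256 ± 10.2 CPM, while Cspg4 (log2 5.08), Kcnj8 (3.81) and Notch3 (0.76) were higher in females. The 9 leukocyte markers summed to 70.3 to 86 CPM in female and 77.3 to 94.1 in male libraries. Ptprc, Adgre1 and Cd3e had 0 counts in all, Cd14 (63.9 ± 10.2 against 26.5 ± 2.47 CPM) and Cd68 (5.78 ± 1.07 against 2.41 ± 0.99) were higher in females, and Lyz2 (9.89 ± 1.13 against 54.6 ± 6.03) was lower. What part these differences have in the results below was not tested, and in bulk RNA fewer cells of a type and less RNA per cell cannot be told apart.

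Female Oct4 KO cells held less RNA of Cdk4, Cdkn2a, Cdkn1b, Cdkn1a and Ccnd3 than male cells and more of Cdkn2c and Ccnd2. The Ccnd2 and Ccnd3 differences were small, and were called under only 7 and 12 of 16 alternative analyses. Cdk4 differed most, at 197 CPM ± 1.11 in female and 410 ± 15.4 in male libraries (SD, n = 3 each). Thus 5 of the 10 genes were lower in female cells, 2 were higher and 3 (Cdkn2b, Ccnd1 and Cdk6) were not called at an edgeR adjusted p under 0.05. The background was 60.7% of all 14814 genes called, with 30.9% higher and 29.8% lower in female cells, so a share of 7 in 10 is near the background of these libraries. The median log2 fold change of the 10 was -0.02, beside -0.01 over all genes. The CPM of the groups did not overlap for 8 of the 10, against 67.1% of all genes tested.

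**Figure D1:**
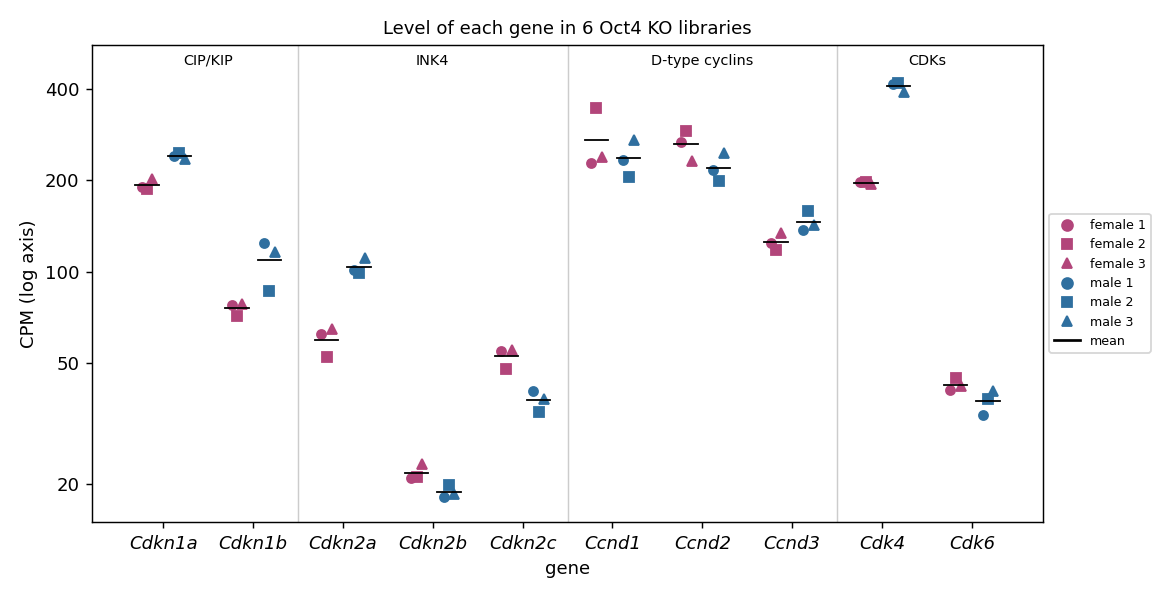
Level of the 10 genes in each library, in CPM on a log axis, grouped by class; symbols mark the replicate, colours the sex and black lines the mean of 3 libraries. The 3 male Cdk4 values (392 to 420 CPM) lie far above the 3 female ones (195 to 198), while the Ccnd1 and Ccnd2 values of the sexes overlap.

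Cdkn1a (mm10 chromosome 17, 29090976 to 29100727, plus strand) encodes p21, the CIP/KIP inhibitor that p53 induces after DNA damage. Its level was 191, 187 and 202 CPM in the female and 240, 246 and 236 CPM in the male libraries. All female libraries lay below all male ones, with little spread in either group. The log2 fold change, female over male, was -0.32 ± 0.07 (SE), a fold of 0.804 (edgeR adjusted p = 0.0014). Cdkn1b (chromosome 6, 134920401 to 134925513, plus strand) encodes p27, the inhibitor that accumulates in quiescent cells. It was at 78, 71.7 and 78.4 CPM in the female and 124, 86.7 and 116 CPM in the male libraries. The groups did not overlap, but male replicate 2 sat much nearer the female libraries than the other two. The Cdkn1b fold change was -0.52 ± 0.11 on the log2 scale (edgeR adjusted p = 0.000612). The male coefficient of variation of Cdkn1b was 18.1%, where the 90th percentile over genes at 10 to 500 CPM was 15.9%. Without male replicate 2, the Cdkn1b log2 fold change was -0.68.

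The third CIP/KIP gene, Cdkn1c, was not among the 10. It encodes p57, an imprinted inhibitor of differentiating cells. Its counts were 129, 90 and 110 in female and 5, 8 and 3 in male libraries. Cdkn1c was thus at 5.47 ± 0.81 against 0.25 ± 0.14 CPM. It was higher in female cells (log2 4.43 ± 0.41, edgeR adjusted p = 7.08e-08), the reverse of Cdkn1a and Cdkn1b, though at a far lower count than either. The fitted fold change rests on 16 male counts.

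Cdkn2a (mm10 chromosome 4, 89274471 to 89294653, minus strand) is read from separate start sites into p16INK4a, an INK4 inhibitor of CDK4 and CDK6, and p19ARF, which stabilises p53 and does not bind these kinases. The annotation gives 1 transcript for each, with first exons at 89281986 to 89282192 and 89294334 to 89294653. Counts per gene add both products, so the share of p16INK4a cannot be told from this table. The 2 start regions are shown because the gene count cannot tell them apart. Each window runs from 250 bases before to 50 after a RefSeq start site (GRCm38.p6, minus strand), with GC boxes (GGGCGG) and E2F motifs (TTTCCCGC, TTTCGCGC, TTTGCCGC or TTTGGCGC) in capitals, both strands searched.
Cdkn2a upstream start, p19ARF, chr4:89294570-89294869: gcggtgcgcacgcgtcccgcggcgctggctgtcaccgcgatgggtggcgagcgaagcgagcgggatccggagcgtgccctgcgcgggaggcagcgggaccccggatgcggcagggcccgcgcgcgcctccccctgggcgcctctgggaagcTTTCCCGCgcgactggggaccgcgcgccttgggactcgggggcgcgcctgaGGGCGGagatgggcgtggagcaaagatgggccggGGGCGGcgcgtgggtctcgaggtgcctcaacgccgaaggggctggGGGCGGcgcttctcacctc
Cdkn2a downstream start, p16INK4a, chr4:89282143-89282442: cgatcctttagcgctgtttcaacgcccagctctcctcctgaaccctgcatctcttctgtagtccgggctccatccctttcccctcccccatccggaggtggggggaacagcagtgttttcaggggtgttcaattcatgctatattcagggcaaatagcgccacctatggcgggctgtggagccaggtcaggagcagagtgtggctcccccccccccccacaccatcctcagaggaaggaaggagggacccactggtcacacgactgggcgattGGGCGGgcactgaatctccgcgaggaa
The upstream window is 77% G and C and holds 3 GC boxes and 1 E2F motif. The downstream window is 60.3% G and C and holds 1 GC box and none of the E2F letters. Of 32851 RefSeq start windows 35.7% hold the GC box and 2.26% an E2F motif of this set. These matches describe letters only.

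Cdkn2a stood at 62.4, 52.4 and 64.8 CPM in the female and 101, 99.2 and 111 CPM in the male libraries. The highest female value was well under the lowest male one. Its log2 fold change was -0.80 ± 0.09, a fold of 0.576 (edgeR adjusted p = 1.41e-06). A correction for gene length, described below, left it lower but at -0.31 ± 0.08. Cdkn2b, which lies next to Cdkn2a on chromosome 4 (89306299 to 89311039) and encodes p15, the INK4 inhibitor induced by TGF-beta, was not called. Its level was 20.9, 21.2 and 23.3 CPM in the female and 18.1, 19.9 and 18.6 CPM in the male libraries. Every female value was above every male one, by a small margin. The fold change had a wide interval (log2 0.21, 95% interval -0.05 to 0.46, edgeR adjusted p = 0.147). The difference between the fold changes of the 2 neighbours was not tested.

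Cdkn2c (mm10 chromosome 4, 109660876 to 109667189, minus strand), the gene of the INK4 inhibitor p18, was the inhibitor of the 10 that was higher in female cells. It was at 54.8, 47.8 and 55.5 CPM in the female and 40.5, 34.6 and 38.2 CPM in the male libraries. The groups did not overlap. The log2 fold change was 0.48 ± 0.10, a fold of 1.39 (edgeR adjusted p = 0.000463). The remaining INK4 gene, Cdkn2d for p19INK4d, was at 13.3 ± 0.51 CPM in females and 17.2 ± 2.49 in males. Cdkn2d was called lower (log2 -0.37 ± 0.14, edgeR adjusted p = 0.0353), a call lost under 6 of 16 alternative analyses.

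Among the D-type cyclins the differences were small, and Ccnd1 and Ccnd2 varied by 10.8% to 24.4% (coefficient of variation) between libraries of one sex. Ccnd1 (mm10 chromosome 7, 144929931 to 144939925, minus strand) encodes cyclin D1, the D-type cyclin most tightly tied to growth factor and adhesion signals. It was at 228, 348 and 239 CPM in the female and 234, 206 and 271 CPM in the male libraries. Female replicate 2 stood apart above all 5 other libraries, and the groups overlapped. The difference was not called (log2 0.20, 95% interval -0.09 to 0.48, edgeR adjusted p = 0.217), and without female replicate 2 it was -0.02. The female coefficient of variation of Ccnd1 was 24.4%, against a 90th percentile of 16.6% over genes at 10 to 500 CPM.

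Ccnd2 (mm10 chromosome 6, 127125162 to 127152193, minus strand) encodes cyclin D2. Its values were 267, 292 and 231 CPM in the female and 216, 199 and 246 CPM in the male libraries. The groups overlapped, as female replicate 3 lay below male replicate 3. Ccnd2 was called higher in female cells at log2 0.26 ± 0.10 (edgeR adjusted p = 0.03), with an interval of 0.05 to 0.46. That call was lost under 9 of 16 alternatives, whose adjusted p ranged from 0.00565 to 0.576, and the length correction turned its sign (-0.06). Among the single libraries, the call ended when one of 4 was left out, giving an edgeR adjusted p of 0.0821 without the first and 0.126 without the second female replicate, and of 0.0967 without the first and 0.155 without the second male replicate. With the sample number as a block its edgeR adjusted p was 0.0621.

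Ccnd3 (mm10 chromosome 17, 47505051 to 47599691, plus strand), the gene of cyclin D3, went the other way. It was at 124, 118 and 134 CPM in the female and 137, 159 and 143 CPM in the male libraries. The groups did not overlap, though the highest female and the lowest male library were close. Ccnd3 was called lower in female cells at log2 -0.22 ± 0.08 (edgeR adjusted p = 0.0322). The call was lost under 4 of 16 alternatives, whose adjusted p ranged from 0.000109 to 0.103: without female replicate 1 (0.103), female replicate 2 (0.103) or male replicate 2 (0.0959), and with the sample number as a block (0.0674).

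Cdk4 (mm10 chromosome 10, 127063534 to 127067920, plus strand) showed the largest difference of the 10 genes. Its start region is shown for that reason and for its repeated motif. The window is again 250 bases before to 50 after the RefSeq start site (GRCm38.p6, plus strand), with E-boxes (CACGTG) and GC boxes (GGGCGG on either strand) in capitals.
Cdk4 start, chr10:127063285-127063584: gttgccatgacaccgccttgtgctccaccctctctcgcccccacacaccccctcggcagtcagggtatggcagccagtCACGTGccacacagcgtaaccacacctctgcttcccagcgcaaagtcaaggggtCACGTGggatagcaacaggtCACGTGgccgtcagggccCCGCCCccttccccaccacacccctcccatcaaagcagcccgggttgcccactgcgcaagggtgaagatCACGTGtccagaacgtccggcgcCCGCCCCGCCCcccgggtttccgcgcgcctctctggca
It holds 4 copies of the E-box letters CACGTG, which are known to be bound by MYC and related basic helix-loop-helix factors, and 3 GC boxes, 2 of which overlap. At least 1 such E-box is in 7.15% of the 32851 RefSeq windows and at least 4 are in 8 of them (0.0244%). Windows were found for 8 of the 10 genes. Of the 12 windows of these genes, 1 each of Cdk6 and Cdkn2c holds a single CACGTG, and the other 9 hold none. The Myc gene stood at 85.3 ± 3.04 CPM in females and 98.1 ± 6.03 in males (log2 -0.20 ± 0.08, edgeR adjusted p = 0.0408), a call lost under 8 of 16 alternatives. Binding was not measured.

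Cdk4 encodes the main partner kinase of D-type cyclins in most tissues. Its level was 197, 198 and 195 CPM in the female and 417, 420 and 392 CPM in the male libraries. The groups stood far apart, with a coefficient of variation of 0.564% in female and 3.76% in male cells. The log2 fold change was -1.06 ± 0.07, or 2.08-fold higher in male cells (95% interval of the female over male fold 0.431 to 0.535, edgeR adjusted p = 1.87e-09). It was called under all 16 alternatives, at log2 -1.17 to -0.88. Of all genes tested 23.3% had a larger absolute fold change. That share was 33.3% for Cdkn2a, and 50.6% to 80.8% for the other 8 genes. At its 3′ end Cdk4 shares 641 exonic bases with Tspan31, a tetraspanin gene on the opposite strand, at 67.7 ± 5.60 CPM in females and 110 ± 9.45 in males (log2 -0.70 ± 0.09). Whether counting used strand is not stated in the sources used here, so reads from the shared stretch cannot be assigned to one of them. Ccnd1 and Ccnd3 likewise share 1100 and 361 exonic bases with the opposite-strand genes Lto1 (written LTO1 in the annotation) and Bysl. Bysl was at 16.7 ± 0.92 and 35.0 ± 2.10 CPM.

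Cdk6 (mm10 chromosome 5, 3341485 to 3531008, plus strand), the related kinase that is prominent in blood cells, was at 40.9, 44.7 and 42.2 CPM in the female and 33.8, 38.2 and 40.6 CPM in the male libraries. The female values were all above the male ones, and male replicate 3 came within a small margin of the lowest. The difference was not called (log2 0.18, 95% interval -0.03 to 0.39, edgeR adjusted p = 0.127), while Cdk4 was lower in female cells. The difference between the fold changes of the kinases was not tested. With the length correction Cdk6 was called lower in female cells instead (log2 -0.28 ± 0.10, edgeR adjusted p = 0.0186; range over 16 alternatives 0.0186 to 0.603).

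Length matters here because levels followed gene length differently in the groups. Each library was set against the average of all 6, and the slope of that log2 difference on log2 exonic length was taken over 10812 genes. It was 0.0708 to 0.185 for female and -0.159 to -0.103 for male libraries. By the length of all annotated exons, Cdk6 (13989 bases), Ccnd2 (9409) and Ccnd3 (8775) thus lie where the trend ran higher in female cells. Short genes such as Cdkn2a (1172) and Cdkn2b (1390) lie where it ran lower. The Ccnd3 transcripts with the full coding sequence have only 1977 to 2113 bases. Those of Cdk6 have 2470 and 11525. The places of Ccnd3 and Cdk6 on the trend, and so their corrected values, depend on which transcripts were present, which was not measured. With this trend removed, Cdkn2b was called higher in female cells (log2 0.66 ± 0.11, edgeR adjusted p = 0.000107; range over 16 alternatives 0.000107 to 0.529) and Ccnd3 moved to -0.51 ± 0.09. Cdk4 (-0.88 ± 0.07), Cdkn1b (-0.51 ± 0.11), Cdkn1a (-0.19 ± 0.06) and Cdkn2a stayed lower, and Cdkn2c stayed higher (0.73 ± 0.09). Whether the length trend is biological or technical was not tested.

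**Figure D2:**
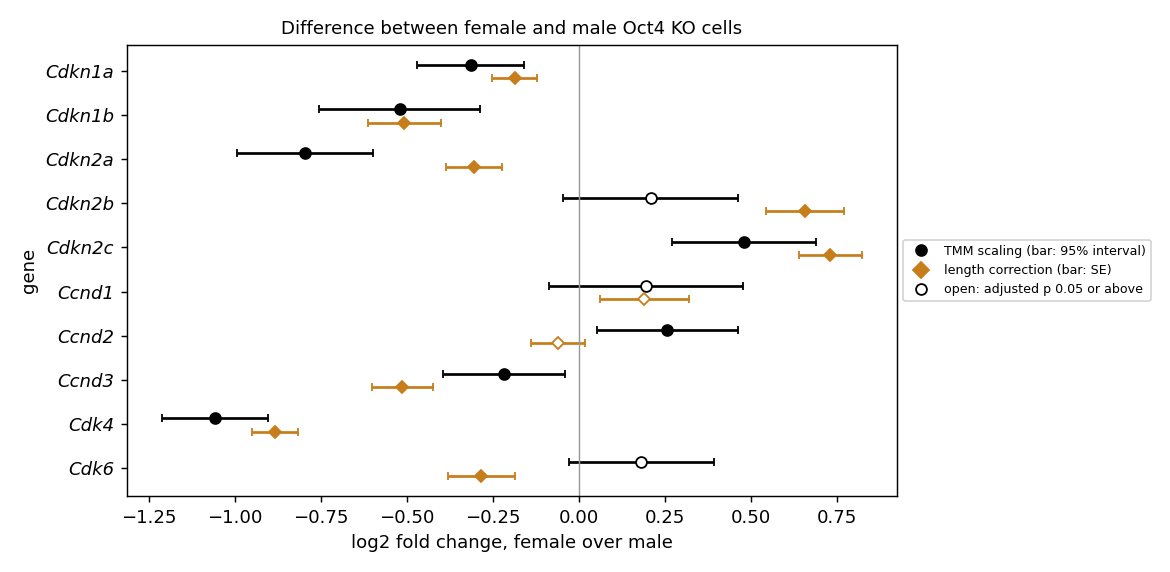
Log2 fold change, female over male, of the 10 genes. Black circles are the TMM-scaled fit with 95% intervals, orange diamonds the fit with the length trend removed with SE, and open symbols were not called. Cdk4 is lowest under both fits (-1.06 and -0.88), while Cdk6 and Ccnd2 lie on opposite sides of 0 under the 2 fits.

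Levels of different genes can be compared only per length, here as RPKM over the length of all annotated exons, which understates a gene whose shorter transcripts dominate. Ccnd1 gave the most D-type cyclin RNA by this measure, 57.2% ± 4.7 of the summed RPKM of the 3 genes in female and 55.5% ± 2.52 in male cells. Ccnd2 gave 28.2% ± 2.67 and 25.9% ± 0.35, and Ccnd3 14.6% ± 2.86 and 18.6% ± 2.87. The order Ccnd1, Ccnd2, Ccnd3 held in all 6 libraries by this measure, but it depends on the lengths used. Ccnd3 was divided by 8775 bases, while its transcripts with the full coding sequence have 1977 to 2113. For Ccnd1 and Ccnd2 the full coding transcripts have 3740 and 6330 bases, against the 4709 and 9409 used. Levels per transcript were not measured, so the order of the 3 cyclins is not settled here. The summed D-type cyclin level was 90.8, 118 and 90.7 RPKM in the female and 88.3, 82.9 and 100 RPKM in the male libraries, so the groups overlapped. Among the inhibitors Cdkn1a and Cdkn2a were the most abundant, at 54.4 ± 2.17 and 51.1 ± 5.65 RPKM in female cells, which did not differ beyond their spread. In male cells Cdkn2a was first at 88.7 ± 5.59 RPKM, above Cdkn1a at 67.7 ± 1.37. The rest followed at 19.6 ± 1.58 RPKM for Cdkn2c, 16.7 ± 0.83 for Cdkn1b and 15.7 ± 0.93 for Cdkn2b in female cells, where the last 2 did not differ beyond their spread. In male cells Cdkn1b followed Cdkn1a at 24.0 ± 4.33 RPKM, and Cdkn2c (14.1 ± 1.11) and Cdkn2b (13.6 ± 0.65) did not differ beyond their spread. The order of the inhibitors likewise depends on the lengths used. Cdkn1a was divided by 3553 bases, while its transcripts with the full coding sequence have 922 to 2080. The Cdkn2a transcripts have 852 and 895, against the 1172 used. Which of Cdkn1a and Cdkn2a was first is therefore not settled here. By this measure Cdk6 was the lowest of the 10 genes in both groups, at 3.05 ± 0.14 and 2.68 ± 0.25 RPKM. Cdk4 was the highest at 60.5 ± 0.34 and 126 ± 4.74, though in female cells the level of Ccnd1 (57.7 ± 14.1) was within its spread of Cdk4. Cdk6 was divided by 13989 bases, while its transcripts with the full coding sequence have 2470 and 11525. These ranks are therefore not settled here.

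Cdk4 outweighed Cdk6 in every library. The ratio of their RPKM was 20.7, 19 and 20 for female libraries, against 53.1, 47.3 and 41.5 for male ones. By this measure both groups were dominated by Cdk4, and the female ratio was well under the male one throughout. The size of the ratio depends on the length used for Cdk6. The ratio of Cdkn2a to its neighbour Cdkn2b was 3.54, 2.94 and 3.31 for female libraries, against 6.64, 5.92 and 7.11 for male ones, with no overlap. Cdkn1a over Cdkn1b was 3.14, 3.34 and 3.3 for female libraries, against 2.48, 3.63 and 2.6 for male ones, and overlapped. Relative to the kinases, female cells carried more D-type cyclin RNA: the summed cyclins over summed Cdk4 and Cdk6 gave 1.43, 1.85 and 1.44 for female libraries, against 0.676, 0.628 and 0.809 for male ones. The summed Cdkn2a, Cdkn2b and Cdkn2c (INK4, without Cdkn2d) over the kinases gave 1.4, 1.21 and 1.47 against 0.877, 0.847 and 0.993. The INK4 sum itself was lower in female cells, at 86.4 ± 7.77 against 116 ± 5.64 RPKM, as was Cdkn2a. The ratio of summed Cdkn1a and Cdkn1b (CIP/KIP, without Cdkn1c) to the D-type cyclins was lower in female libraries, at 0.781, 0.578 and 0.817 against 1.07, 1.06 and 0.92. None of the last 3 ratios overlapped between the groups. They are given as descriptions, without a test, and include p19ARF in the Cdkn2a count. The length trend differed between the groups, and its part in ratios of genes of unlike length was not tested.

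**Figure D3:**
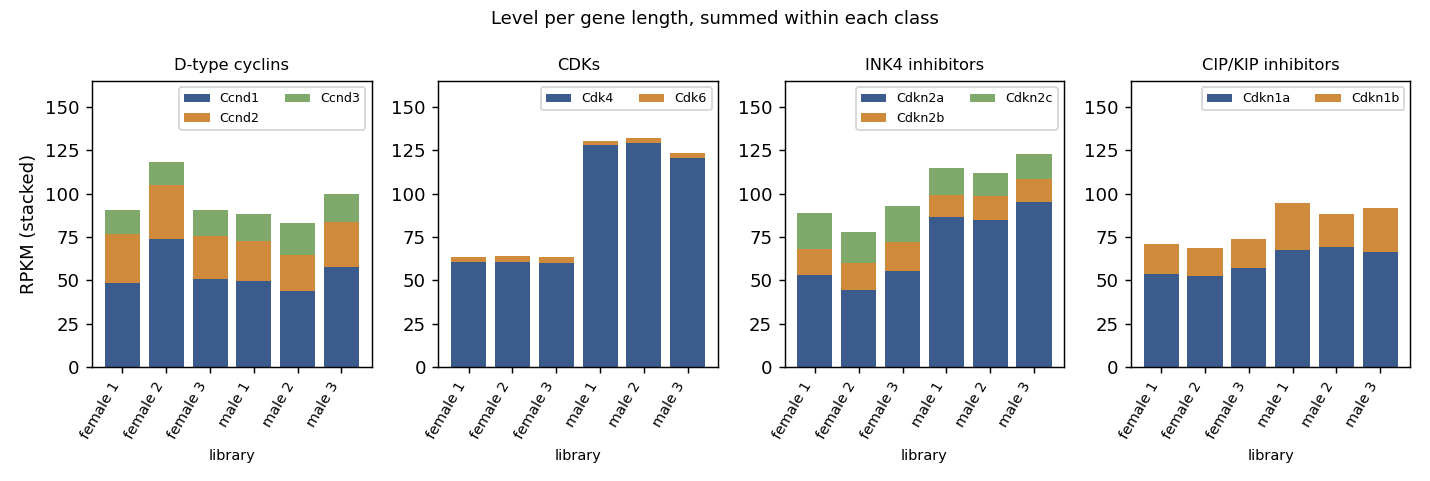
RPKM of those of the 10 genes in each class, stacked, in each of the 6 libraries. The kinase sum is 63.2 to 64 RPKM in female and 124 to 132 RPKM in male libraries, almost all of it Cdk4 at the lengths used. The D-type cyclin sums of the groups overlap.

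Genes that act after the cyclin D kinases were mostly lower in female cells, as Cdk4 was. Of 15 later cyclin, CDK and CDC25 genes 11 were lower, 0 higher and 4 (Ccne2, Cdc25a, Cdc25b and Wee1) not called (median log2 -0.63, all genes -0.01). Ccne1, the cyclin E1 gene that drives CDK2 and is itself an E2F target, was at 5.91 ± 1.22 CPM in females and 19.5 ± 4.03 in males (log2 -1.72 ± 0.19). Cdk1, the mitotic kinase gene, had a log2 fold change of -1.32 ± 0.10, Ccnb2, a mitotic cyclin gene, one of -1.16 ± 0.14 and Pkmyt1, the gene of a kinase that restrains CDK1, one of -1.32 ± 0.21. Of 18 replication genes under E2F control 16 were lower (median -1.03), with the helicase subunit genes Mcm5 (-2.10 ± 0.14) and Mcm3 (-1.89 ± 0.13) first. Orc1, an origin recognition gene, was the exception called higher, at 3.43 ± 0.50 against 2.05 ± 0.54 CPM, a call lost under 8 of 16 alternatives, and Cdt1, a licensing factor gene, was not called. All 14 proliferation markers were lower (median -1.05), among them Birc5 (-1.34 ± 0.16) and Plk1 (-1.20 ± 0.14). These lists share Ccne1, Ccnb1 and Cdk1, and were written with earlier results of these libraries known. The shares called were 73.3% for the later cyclin, CDK and CDC25 genes, 94.4% for replication genes and 100% for proliferation markers. Over all genes 60.7% were called, with 30.9% higher and 29.8% lower.

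The RB and E2F genes did not move as one. Of 13 tested, 6 were higher, 4 lower and 3 not called (median log2 0.10), a share called of 76.9% beside 60.7% of all genes. Rb1, the retinoblastoma gene, was at 26.2 ± 2.39 CPM in females and 12.6 ± 0.47 in males (log2 1.06 ± 0.13, edgeR adjusted p = 1.81e-06). E2f1, an activating E2F, was also higher (67.0 ± 7.06 against 38.6 ± 1.64 CPM), as was the repressor E2f8 (27.8 ± 11.9 against 8.87 ± 1.61). Tfdp1, the main E2F partner gene, was lower (log2 -0.49 ± 0.08), as were the RB relative Rbl1 (-0.71 ± 0.21) and the repressors E2f7 (-1.03 ± 0.25) and E2f4 (-0.28 ± 0.10). E2f2, E2f5 and E2f6 were not called. The calls of Tfdp2, Rbl2, E2f3 and E2f4 were lost under 10, 7, 5 and 5 of 16 alternatives. With upper quartile scaling, with total counts or without male replicate 2, 3 of the list were called higher rather than 6, and with total counts its median was -0.02, where that of all genes was -0.13.

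Genes tied to the control of the inhibitors and cyclins are given by list. The share called was 76.2% for the p53 pathway, 68.4% for regulators of the Cdkn2a locus, 64.3% for TGF-beta and FOXO genes and 53.8% for turnover genes, beside 60.7% of all genes, so the last 3 lists are near the background. Of 21 tested p53 pathway genes 12 were lower in female cells, as Cdkn1a was, 4 were higher (Pmaip1, Sesn2, Trp53inp1 and Rrm2b) and 5 (Mdm4, Zmat3, Btg2, Ddit4l and Polk) not called (median log2 -0.43). Phlda3, a p53 target that restrains AKT, was at 80.2 ± 8.98 CPM in females and 207 ± 4.84 in males (log2 -1.37 ± 0.09). The death receptor gene Fas (-2.16 ± 0.15), the polo-like kinase gene Plk2 (-1.44 ± 0.12) and the damage response gene Gadd45a (-1.06 ± 0.11) were lower too. Trp53, the p53 gene, and Mdm2, its inhibitor, were named after their values were seen. The largest rise among the 4 was that of Pmaip1, the gene of the death factor NOXA, at log2 1.48 ± 0.19. Trp53 and Mdm2 had log2 fold changes of -0.65 ± 0.09 and -0.63 ± 0.08.

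Of 19 chromatin and transcription regulators of the Cdkn2a locus 8 were higher, 5 lower and 6 not called (median log2 0.05). Tbx3 and Tbx2, T-box repressors of Cdkn2a, differed in opposite directions. Tbx3 was at 156 ± 8.04 CPM in females and 32.9 ± 0.93 in males (log2 2.25 ± 0.08), and Tbx2 at 1.54 ± 0.49 and 12.3 ± 1.00 (log2 -2.98 ± 0.23). Ets1 (1.09 ± 0.09) and Ets2 (0.96 ± 0.09), factors known to activate p16INK4a, were higher. Genes of the Polycomb complexes, whose proteins silence the locus, divided between the directions. Bmi1, Ring1 and Ezh2 were lower, at log2 -0.33 ± 0.09, -0.94 ± 0.14 and -1.02 ± 0.14. Cbx7 (0.86 ± 0.18), Cbx2 (0.84 ± 0.16), Rnf2 (0.77 ± 0.09) and Suz12 (0.39 ± 0.10) were higher, and Eed, Phc1, Phc2 and Cbx8 were not called.

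Of 14 TGF-beta and FOXO genes that control Cdkn1b and Cdkn2b, 4 were higher, 5 lower and 5 (Tgfbr2, Smad2, Zbtb17, Foxo3 and Foxo4) not called (median log2 -0.03). Smad3, a signal transducer of TGF-beta, was at 145 ± 9.31 CPM in females and 311 ± 11.9 in males (log2 -1.10 ± 0.08), and the ligand gene Tgfb1 was lower too (-0.89 ± 0.08). The receptor gene Tgfbr1 (0.98 ± 0.08) and the shared transducer Smad4 (0.76 ± 0.08) were higher. Tgfb2, another ligand gene, had a log2 fold change of 1.25 ± 0.17 and Foxo1, a factor that activates Cdkn1b, one of 0.64 ± 0.14. Tgfb3 (-0.68 ± 0.09), the inhibitory Smad7 (-0.63 ± 0.13) and Myc, given above, completed the lower set. Of 13 genes that control turnover of p27, p21 and D-type cyclins 3 were higher, 4 lower and 6 not called (median 0.03). The E2 enzyme gene Cdc34 (-1.27 ± 0.09) and Cks1b (-0.91 ± 0.11), which helps SKP2 bind p27, were lower. Rbx1, a subunit of cullin ligases, was lower at -0.48 ± 0.09, and Cks2 at -0.42 ± 0.17, a call lost under 10 of 16 alternatives. Skp2 itself was not called, at 13.4 ± 2.37 and 13.1 ± 1.01 CPM. Gsk3b, the kinase that marks cyclin D1 for export and decay, was higher at 0.47 ± 0.10, as were the ligase scaffold Cul4a (0.30 ± 0.08) and Usp2 (0.54 ± 0.14), which removes ubiquitin from cyclin D1, but with the length correction 1 gene of this list was called higher rather than 3.

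Of 20 mitogen signalling genes upstream of the D-type cyclins 10 were higher, 8 lower and 2 not called (median log2 0.19). The share called was 90%, beside 60.7% of all genes. Ctnnb1, the beta-catenin gene, was at 1024 ± 46.3 CPM in females and 445 ± 41.7 in males (log2 1.20 ± 0.08). Axin2, a Wnt target gene, was at 6.54 ± 1.00 and 0.12 ± 0.11 CPM, near the limit of 3 counts in the male libraries. Pik3ca, a catalytic subunit of PI3-kinase, was higher (0.82 ± 0.08), and Egfr, the epidermal growth factor receptor gene, was lower (-1.03 ± 0.08).

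**Figure D4:**
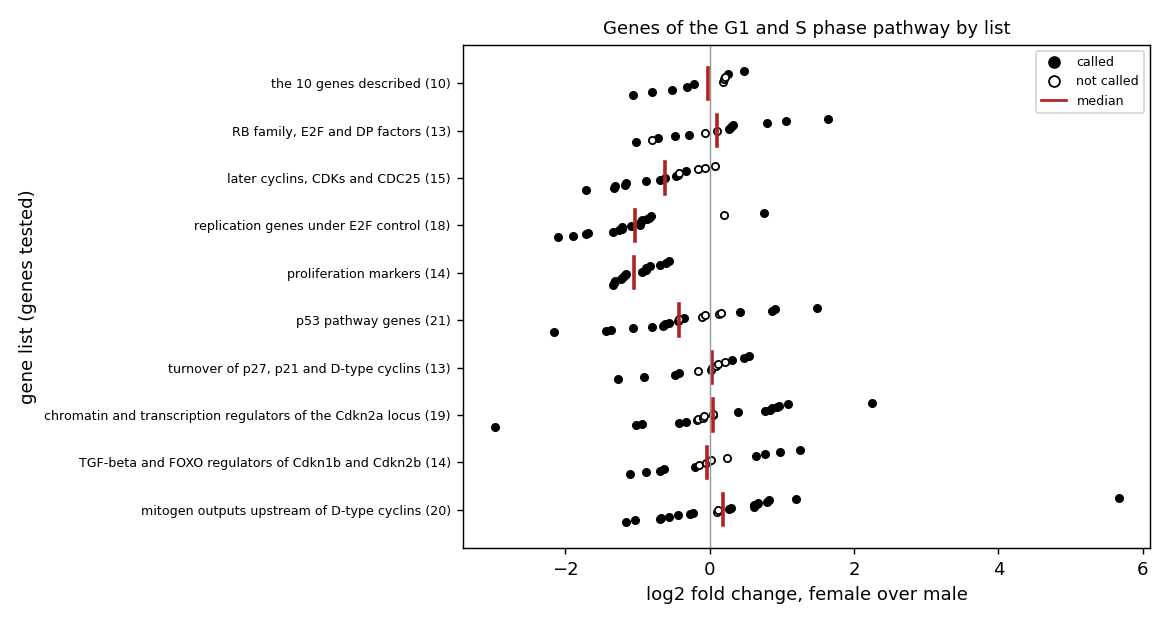
Log2 fold change, female over male, of each tested gene by list; filled points were called, open points were not, and red bars are medians. The replication and proliferation lists have medians of -1.03 and -1.05, while the 10 genes described and the RB and E2F genes spread on both sides of 0.

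Genes often measured beside p16 and p21 as signs of senescence did not share a direction. Of 16 secreted and lamina genes 5 were higher, 7 lower and 4 (Ccl7, Mmp13, Glb1 and Plaur) not called (median log2 0.05). The share called was 75%, beside 60.7% of all genes. With the length correction 9 were called higher. Igfbp5 was at 1363 ± 240 CPM in females and 62.3 ± 2.78 in males, and Igfbp3 at 94.8 ± 13.9 and 8.49 ± 0.63. Both encode binding proteins of insulin-like growth factors. Igfbp7, also on this list, went the other way, at 400 ± 44.7 CPM in females and 1827 ± 55.6 in males (log2 -2.19 ± 0.09). Mmp3, a stromelysin gene, was higher (log2 2.17 ± 0.08), as were the chemokine genes Ccl2 (0.59 ± 0.09) and Cxcl2 (2.08 ± 0.65), the latter at only 1.93 and 0.45 CPM. The 7 lower genes included another chemokine gene, Cxcl1 (-2.04 ± 0.13), along with Lmnb1 (-0.78 ± 0.13), Il6 (-0.66 ± 0.17) and Hmgb1 (-0.47 ± 0.10).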

How the data were processed

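Poly(A) RNA of 6 libraries (3 per sex) was sequenced. Per the submitters' processing notes, the tools were HISAT2 2.0.5 (an aligner) and featureCounts 1.5 (a read counter) and the build mm10. Raw counts per gene, not normalised, are what the authors deposited, and other deposited columns give gene length in bases. The strand and multi-mapping settings are not given in the sources used here. Columns were matched by the library names in the labels, with 0 other sample columns and 0 rows without a gene name.

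The test was that of edgeR 4.0.16 under R 4.3.3 (filterByExpr, TMM, glmQLFit, glmQLFTest, sex as the only term, two-sided, Benjamini-Hochberg over all 14814 genes tested, called under 0.05). CPM and RPKM use the TMM-scaled library size, and means are given ± SD with n = 3. An SE is the size of the log2 fold change over the square root of F. The fit was also run on simulated counts. Few genes differed in these and they had no length trend, unlike the libraries here. That run therefore does not check the scaling or the calls under the present conditions. No library was a copy of another of its sex: the chi-square of their counts over its degrees of freedom was 7.42 to 16. Alternatives used other scalings, no low-count filter, DESeq2 1.42.0, limma-voom 3.58.1, the sample number as a block, a lowess correction for gene length, protein-coding genes only, and each library left out. Coordinates of the 10 genes were identical in GENCODE M21. Start windows are from RefSeq (GRCm38.p6). Counting limits cover counting error only, and no molecular identifiers are named in the sources used here. The pseudogene row Ccnd3-ps had 0 to 2 counts per library.

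The genes and lists were chosen with earlier results of these data known. Named are the 10 genes, up to 4 genes per list with the smallest adjusted p, those behind a count of 5 or fewer, and overlapping genes. Trp53, Mdm2 and the lower senescence genes were named after their values were seen. No neighbour met the rule for neighbours. A few list genes that the rule names are not reported here.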

Additional observations from a re-analysis of the deposited data

How the results depend on the processing

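Cdk4, Cdkn2a, Cdkn1b and Cdkn1a stayed lower and Cdkn2c higher, each called under all 16 alternatives. Total counts moved the median of all genes to -0.13, from -0.01. The count of the 10 genes called higher was 1 rather than 2 under the replicate block (the sample number as a term), under total counts and under upper quartile scaling, and 1 to 2 when single libraries were left out. Sign changes were seen for Ccnd2 with the length correction (-0.062, and -0.061 with the block added), for Cdk6 with the same 2 fits (-0.28 and -0.28), and for Ccnd1 without female replicate 2 (-0.019; 0.31 without female replicate 1). The cause was not tested. Same-numbered libraries did not deviate together (correlations -0.02, -0.10 and -0.15 over 10812 genes), while differently numbered ones gave -0.06 to 0.17. With 3 libraries per group these correlations cannot show whether the numbers mark a shared factor. The block ended the calls of Ccnd2 and Ccnd3, left 4 of the 10 genes lower rather than 5, and moved the calls over all genes to 4360 higher and 4165 lower. Each of the 10 genes had 382 or more counts in every library, while Cdkn1c and Axin2 had 8 or fewer in each male one, where depth limits their fold changes.

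Ratios taken on CPM, not divided by length, differ by construction. In female and male cells these gave 40.75% and 39.16% for Ccnd1, 39.96% and 36.46% for Ccnd2 and 19.29% and 24.38% for Ccnd3 among the D-type cyclins. Cdk4 over Cdk6 became 4.624 and 10.99, Cdkn1a over Cdkn1b 2.545 and 2.265, and Cdkn2a over Cdkn2b 2.749 and 5.527. Cdkn2a, Cdkn2b and Cdkn2c over kinases became 0.5619 and 0.3598, Cdkn1a and Cdkn1b over cyclins 0.4133 and 0.5813, and cyclins over kinases 2.757 and 1.353.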
